A study of Homo sapiens with 9 samples.

Results

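The 28 genes described here carry cells through the making of cholesterol and fatty acids, and they were taken from the count table by their gene names. They are 28 of the 67140 genes in the table. They fall into 7 genes that turn acetyl-CoA into isoprenoid units, 3 that make squalene and lanosterol, 8 that turn lanosterol into cholesterol, 4 of the SREBP control system, 4 of fatty acid synthesis, the sterol carrier STARD4 and the lipin LPIN1. The names matched 31 rows, and the 3 second rows, of LSS, ACACA and FDFT1, held no counts, so each gene was read from 1 row. All 28 passed the filter on low counts. The RNA came from cells of the DMS273 line, which was derived from a human small cell lung cancer. Its 3 groups had 3 libraries each. The control carried a scrambled guide and a genotype labelled WT, a second group had ATG7 knocked out (ATG7 KO), and the third had both ATG7 and SQSTM1 knocked out (ATG7/SQSTM1 KO, called the double knockout below). ATG7 is needed to build autophagosomes, and SQSTM1 encodes p62, a cargo receptor of autophagy. All groups were made with the CRISPRv2 vector and grown in RPMI medium with 10% fetal bovine serum, serum being a source of lipids. The labels give neither the guide sites nor whether a group was a clone or a pool. A single cell line was used, and no rescue or drug treatment is labelled.

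Cholesterol is built from acetyl-CoA through mevalonate, isoprenoid diphosphates, squalene and lanosterol, and fatty acids are built from the same acetyl-CoA through malonyl-CoA. Both routes are under the transcription factors SREBP-1 and SREBP-2, which are made as precursors in the endoplasmic reticulum. When sterols are scarce, SCAP escorts the precursor to the Golgi, proteases release its active part, and that part binds sterol regulatory elements in its target promoters. When sterols are plentiful, INSIG proteins hold SCAP and the precursor back. The transcript of an SREBP gene is therefore not a measure of its active protein, and these libraries measured RNA only.

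Library totals ran from 28675576 to 34222098 counts. Levels are given as CPM, counts scaled to a common library size. ATG7 stood at 27.1 ± 0.901 CPM (SD, n = 3) in control, 11.7 ± 1.52 in ATG7 KO and 10.6 ± 0.550 in the double knockout. SQSTM1 stood at 376 ± 3.53, 391 ± 4.47 and 51.9 ± 3.29 CPM in that order, so both targeted transcripts were low in the groups labelled for their loss. The mitochondrially encoded share of counts was 4.48% to 5.50% in control, 3.87% to 4.93% in ATG7 KO and 5.08% to 6.04% in the double knockout. At this depth each share is known closely, 3.87% with a Wilson 95% interval of 3.86% to 3.88% in ATG7 KO replicate 1, which covers counting error only. The 8 neuroendocrine markers that define most small cell lung cancers summed to 379 to 388 CPM in control, 135 to 138 in ATG7 KO and 396 to 412 in the double knockout. NEUROD1 weighed most in these sums, at means of 194, 73.3 and 237 CPM in that order. In the double knockout against control the markers were split. NEUROD1 and SYP were called higher, while INSM1 (89.2 to 73.2 CPM) and NCAM1 (39.0 to 21.7 CPM) were called lower. The rest were not called or not tested there. In each group 5 of the 8 had a mean of at least 1 CPM. GRP was at 0 in both knockouts and at a mean of only 0.034 CPM in control, too low to be tested. POU2F3 and YAP1, markers of other subtypes, summed to 30.2 to 33.4, 96.1 to 103 and 45.5 to 46.2 CPM. The 5 fibroblast markers summed to 103 to 115, 333 to 360 and 177 to 185 CPM, with 4, 5 and 4 of them reaching 1 CPM. LUM and COL1A1 gave most of these sums and were highest in ATG7 KO. DCN was highest in the double knockout, at means of 7.50, 21.2 and 32.6 CPM in the same order of groups. PDGFRA stood at 2.29, 2.23 and 5.00 CPM, and PDGFRB at 0.843, 1.08 and 0.614 CPM. Blood markers summed to at most 7.68 CPM with CD3E and LYZ at 0 in every library. Fat cell markers summed to at most 0.343 CPM with ADIPOQ at 0, and liver cell markers to at most 0.103 CPM with APOA2 and TTR at 0. The part of the marker shifts and of the mitochondrial share in the results was not tested. In such bulk libraries, fewer cells of a type and less RNA per cell cannot be told apart.

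In ATG7 KO against control, most of the 28 genes were higher, and by small steps. With edgeR's quasi-likelihood test and an adjusted p under 0.05, 19 rose, 2 fell and 7 were not called. Of all 18847 genes tested, 56.7% were called in this comparison, 28.4% higher and 28.3% lower. The largest rise was that of SREBF1, the SREBP-1 gene, at a log2 change of 0.60, and the largest fall that of TM7SF2, a sterol reductase, at −0.77. The median log2 change of the 28 was 0.18, against −0.02 over all tested genes. Taken without sign, the median log2 change was 0.22 for the 28 and 0.29 over all tested genes. No member reached a 2-fold change and 2, SREBF1 and TM7SF2, reached 1.5-fold. All 21 called members had 3 libraries of one group wholly apart from the 3 of the other, a state found in 62.4% of all tested genes (30.8% higher and 31.6% lower). Summed over the 28, the unscaled CPM were 3246 to 3332 in control and 3840 to 3862 in ATG7 KO.

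In the double knockout against control, fewer members moved and both directions were present. Of the 28, 13 rose, 5 fell and 10 were not called, while 38.6% of all tested genes were called, 19.0% higher and 19.6% lower. Changes ran from −0.34 for lanosterol synthase LSS to 0.37 for the sterol oxidase MSMO1 on the log2 scale, and none reached 1.5-fold. The median was 0.087, against −0.0080 over all genes. The 5 falls were those of ACAT2, PMVK, LSS, CYP51A1 and ACLY. The libraries did not overlap for 14 higher and 7 lower members, beside 48.8% of all tested genes (23.9% higher and 24.9% lower). Without double knockout replicate 2 the count of rises was 8, with DHCR7, HSD17B7, SC5D, SQLE and STARD4 no longer called. The summed level in the double knockout was 3375 to 3412 unscaled CPM, above control and below ATG7 KO with no overlap. Such sums are weighted to the genes with most counts. In control FASN, ACLY and SCD stood at means of 568, 547 and 423 scaled CPM, and in the double knockout at 589, 459 and 508. By these means SCD and FASN stood higher and ACLY lower than in control, and the sum alone does not say how many members stood above control. Called or not, 17 of the 28 log2 changes were positive and 11 negative.

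When the double knockout was set against ATG7 KO, the members were mostly lower. Of the 28, 16 fell, 6 rose and 6 were not called, while 60.5% of all tested genes were called, 30.5% higher and 29.9% lower. The fall was largest for ACAT2, the thiolase of the first step, at −0.80, and the rise largest for TM7SF2 at 0.50 on the log2 scale. The 6 that rose were TM7SF2, MSMO1, HSD17B7, SREBF2, INSIG1 and LPIN1. Libraries did not overlap for 6 higher and 16 lower members, beside 65.9% of all tested genes (33.5% higher and 32.4% lower). The median log2 change was −0.21, against 0.019 over all genes, and it was −0.14 without ATG7 KO replicate 1. Every one of the 3 comparisons shares libraries with the others, so their values are given side by side and are not independent of each other.

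**Figure D1:**
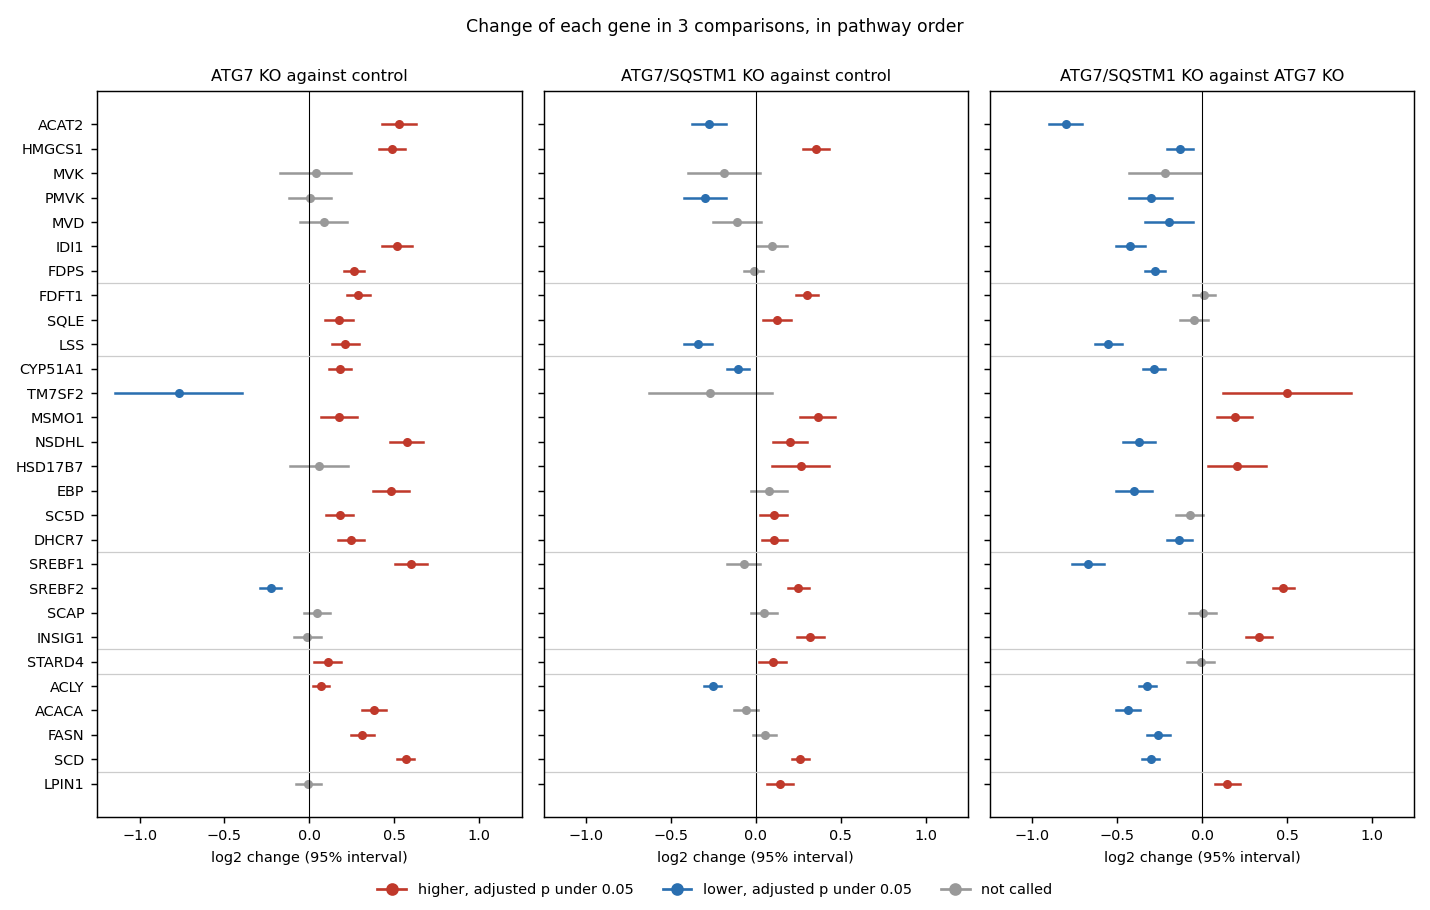
Log2 changes of the 28 genes (x axis) with 95% intervals in the 3 comparisons, genes in rows grouped by role, with points in red (higher) or blue (lower) for edgeR adjusted p under 0.05 and grey for the rest. In ATG7 KO against control 19 called points lie right of 0 and 2 left, and in the double knockout against ATG7 KO 6 lie right and 16 left.

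Read gene by gene, the calls made several patterns. MSMO1 alone among the 28 was called higher in all 3 comparisons, with each group above the one before. Both knockouts were above control and the double knockout below ATG7 KO for 4 genes, HMGCS1, NSDHL, DHCR7 and SCD. Another 4, FDFT1, SQLE, SC5D and STARD4, were above control in both knockouts with no call between the knockouts. ACAT2, LSS, CYP51A1 and ACLY were above control in ATG7 KO and below it in the double knockout. A further 6 genes, IDI1, FDPS, EBP, SREBF1, ACACA and FASN, were above control in ATG7 KO and not called between the double knockout and control. SREBF2 fell in ATG7 KO and rose in the double knockout. INSIG1, LPIN1 and HSD17B7 rose in both comparisons of the double knockout and were not called in ATG7 KO against control, and PMVK fell in those same comparisons. TM7SF2 fell in ATG7 KO and was higher in the double knockout than there, MVD was called in the comparison of the knockouts alone, and MVK and SCAP were not called in any of the 3.

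**Figure D2:**
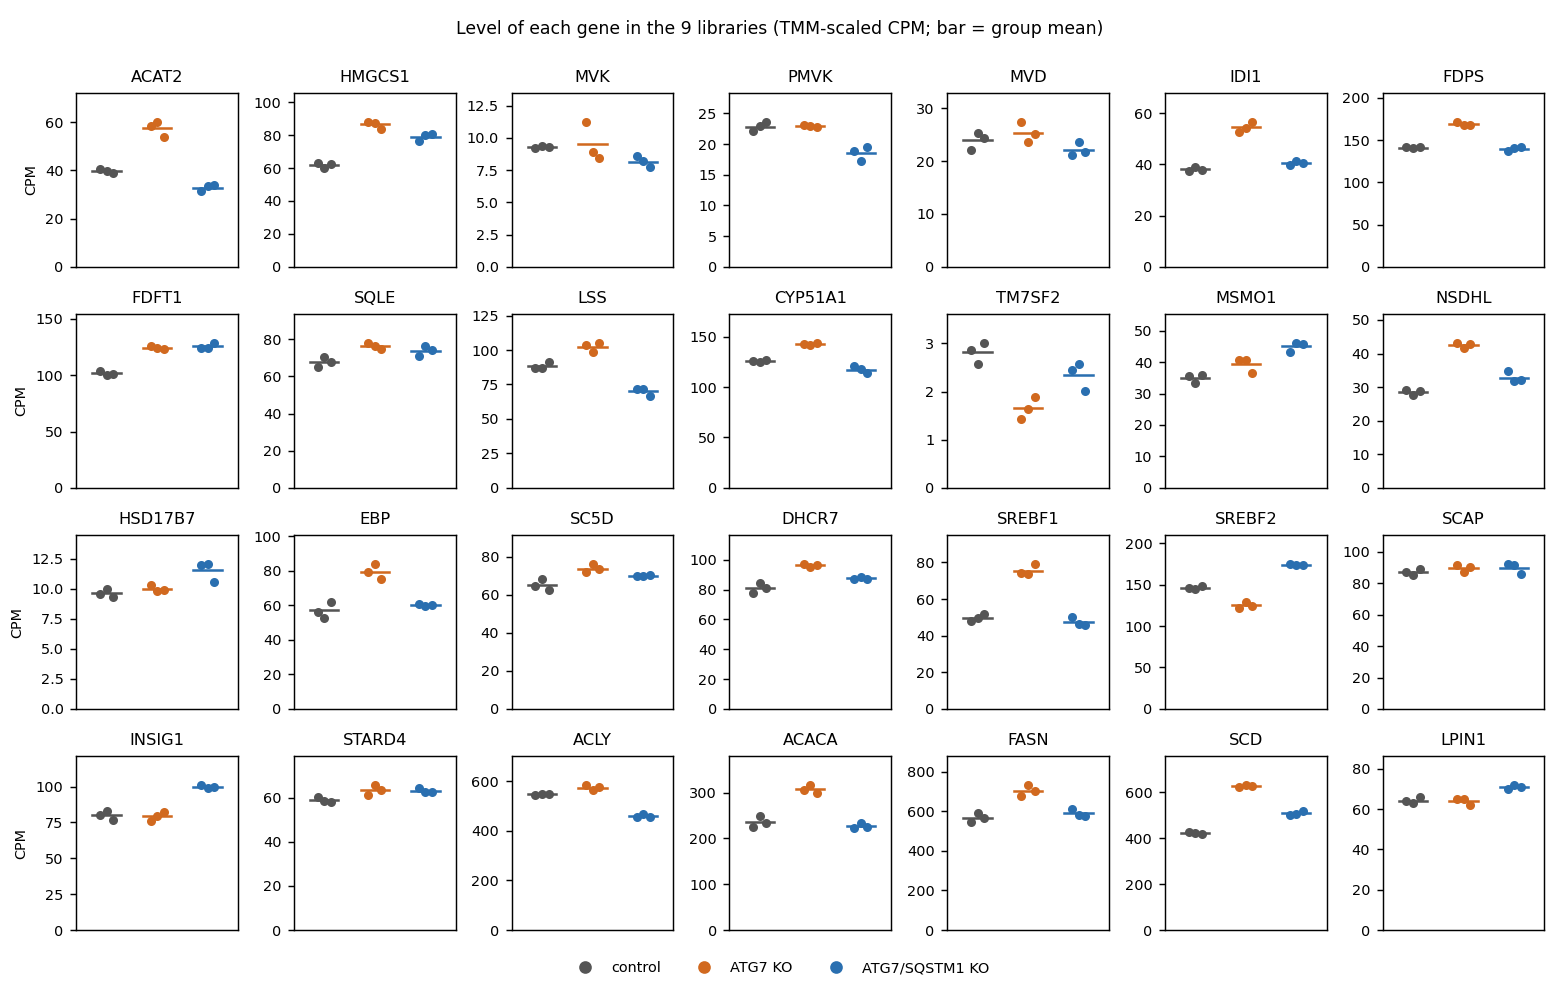
Level of each of the 28 genes in each of the 9 libraries (CPM, an axis of its own for each gene), with control, ATG7 KO and double knockout in separate columns; points are libraries and bars group means. SREBF1, ACAT2, NSDHL and SCD show ATG7 KO libraries above all others, and SREBF2 and INSIG1 show double knockout libraries above all others.

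The genes differ widely in how much transcript they give. Levels can be compared between genes only per length, so CPM was divided by kilobases of merged exons. On that scale ACLY, ATP citrate lyase, which makes the cytosolic acetyl-CoA that both routes use, was highest in control at 105 ± 0.749 CPM per kb (SD, n = 3). The desaturase SCD followed at 78.9 ± 0.812, fatty acid synthase FASN at 60.6 ± 2.28, the farnesyl diphosphate synthase FDPS at 37.9 ± 0.202 and the lanosterol demethylase CYP51A1 at 35.2 ± 0.250. At the low end stood HSD17B7 at 2.01 ± 0.0657, mevalonate kinase MVK at 1.43 ± 0.0119 and TM7SF2 at 0.828 ± 0.0636 CPM per kb. Of the 27 neighbouring pairs in this order, 19 had library ranges apart in control and 8 overlapped. Pairs that overlapped, such as FDFT1 with DHCR7 or SREBF2 with DHCR7, have no order beyond their spread. In ATG7 KO SCD at 117 ± 0.809 CPM per kb stood above ACLY at 110.1 ± 2.02. In the double knockout the 2 were at 94.7 ± 1.45 and 88.0 ± 1.32 CPM per kb. The order depends on the length used. Per kilobase of the longest coding transcript, FDPS stood at 95.4 CPM in control, between ACLY at 126 and SCD at 78.9, with FASN below these at 66.3, and SC5D moved from rank 19 to rank 10. On that length ACLY stayed above SCD in both knockouts, at 132 against 117 CPM per kb in ATG7 KO and 106 against 94.7 in the double knockout. HSD17B7, MVK and TM7SF2 were lowest in control by either length.

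**Figure D3:**
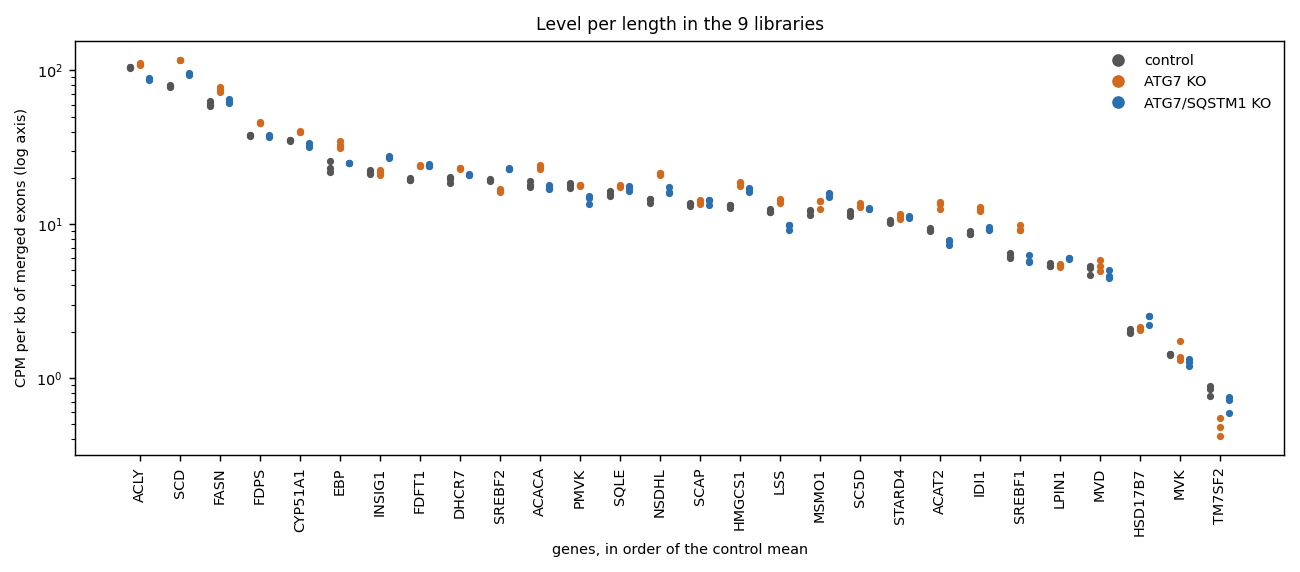
Level of each gene in CPM per kilobase of merged exons (log axis) in the 3 groups, with genes ordered by their control level; points are the 9 libraries. By this length ACLY, SCD and FASN are the 3 highest and HSD17B7, MVK and TM7SF2 the 3 lowest in control.

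The SREBP control genes are taken first, because many of the other members are known targets of the factors that they encode or restrain. Promoter windows, from 250 bases before to 50 after each annotated start, came from RefSeq (GRCh38.p14), and 24 of the 28 members had at least 1, giving 34 windows. Below are the stretches of these windows that lie before the first GENCODE 29 start of SREBF1, SREBF2, INSIG1 and SCD, shown because these genes stood highest in different groups, SREBF1 and SCD in ATG7 KO and SREBF2 and INSIG1 in the double knockout. Each is printed 5′ to 3′ on the gene's strand. Capitals mark exact matches, on either strand, to a consensus of the sterol regulatory element with 1 free position, CCAAT (the NF-Y box), GGGCGG (the Sp1 box) and CACGTG (the E-box).
SREBF1, chr17:17837003-17837236 (minus strand): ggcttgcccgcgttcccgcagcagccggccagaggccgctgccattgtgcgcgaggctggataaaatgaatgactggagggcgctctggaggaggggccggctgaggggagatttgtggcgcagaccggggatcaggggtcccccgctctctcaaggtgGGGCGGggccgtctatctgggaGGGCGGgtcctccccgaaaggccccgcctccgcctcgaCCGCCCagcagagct
SREBF2, chr22:41832855-41833078 (plus strand): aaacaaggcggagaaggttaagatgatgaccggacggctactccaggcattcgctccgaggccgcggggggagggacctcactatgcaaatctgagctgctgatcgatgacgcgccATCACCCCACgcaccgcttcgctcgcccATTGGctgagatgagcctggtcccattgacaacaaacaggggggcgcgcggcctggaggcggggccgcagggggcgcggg
INSIG1, chr7:155297628-155297775 (plus strand): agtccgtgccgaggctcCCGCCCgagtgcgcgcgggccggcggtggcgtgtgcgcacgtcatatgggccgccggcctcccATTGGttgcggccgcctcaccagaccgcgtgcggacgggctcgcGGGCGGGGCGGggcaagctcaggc
SCD, chr10:100346983-100347123 (plus strand): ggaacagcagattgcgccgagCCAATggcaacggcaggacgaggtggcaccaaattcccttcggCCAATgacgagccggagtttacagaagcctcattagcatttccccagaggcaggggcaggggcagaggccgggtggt
The SREBF2 stretch holds 1 sterol regulatory element and 1 NF-Y box, and that of SREBF1 holds 3 Sp1 boxes and none of the other motifs. The INSIG1 stretch holds 1 NF-Y box and 3 Sp1 boxes, of which a pair overlaps, and the SCD stretch holds 2 NF-Y boxes. Over whole windows, the sterol element was found in 1 of 34 member windows, that of SREBF2, and in 0.154% of all 35116 windows in the table. The NF-Y box was in 23 of 34 (67.6%, against 34.6% of all windows), the Sp1 box in 30 of 34 (88.2%, against 45.0%) and the E-box in 5 of 34 (14.7%, against 7.26%). The E-box windows belonged to INSIG1, LSS, SC5D and SCAP. Several windows can belong to 1 gene, a match is a description of letters, and the absence of one says only that these letters are not in the window.

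Gene positions below are those of GENCODE 29 on GRCh38. SREBF1 (ENSG00000072310, chr17:17810399-17837002, minus strand) encodes SREBP-1, which is known above all for fatty acid synthesis genes. It measured 48.0, 49.7 and 51.9 CPM in the 3 control libraries, 74.0, 73.5 and 79.1 in ATG7 KO and 50.4, 46.2 and 45.8 in the double knockout. All 3 ATG7 KO libraries lay above the other 6, and control and double knockout libraries overlapped. SREBF1 rose in ATG7 KO (log2 change 0.60, SE 0.045, edgeR adjusted p = 2.17e-10) and was lower in the double knockout than in ATG7 KO (log2 change −0.67, SE 0.045, edgeR adjusted p = 2.94e-11). The double knockout against control gave log2 change −0.071, SE 0.046, edgeR adjusted p = 0.241, with a 95% interval of −0.17 to 0.024. RAI1 shares 556 bases of exon with SREBF1 on the opposite strand, and no source used here says whether counting used strand. RAI1 stood at 42.2 CPM in control, 53.8 in ATG7 KO and 43.7 in the double knockout, and its part in the SREBF1 values was not tested.

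SREBF2 (ENSG00000198911, chr22:41833079-41907308, plus strand), which encodes SREBP-2, the factor known above all for cholesterol synthesis genes, went the other way. It measured 146, 145 and 148 CPM in the 3 control libraries, 122, 129 and 124 in ATG7 KO and 175, 173 and 174 in the double knockout. The 3 groups did not overlap, with ATG7 KO lowest and the double knockout highest. SREBF2 fell in ATG7 KO (log2 change −0.23, SE 0.030, edgeR adjusted p = 1.06e-06), rose in the double knockout (log2 change 0.25, SE 0.029, edgeR adjusted p = 6.35e-07) and differed between both knockouts (log2 change 0.48, SE 0.030, edgeR adjusted p = 8.11e-12). Per kilobase of merged exons, SREBF1 stood at 0.310 to 0.330 of the SREBF2 level across control libraries, at 0.537 to 0.600 in ATG7 KO and at 0.248 to 0.271 in the double knockout. The ratio was thus highest in all 3 ATG7 KO libraries and lowest in all 3 double knockout libraries. Its size depends on the length used. Per kilobase of the longest coding transcript, SREBF1 stood at 11.7, 17.8 and 11.2 CPM in control, ATG7 KO and double knockout, and SREBF2 at 27.3, 23.3 and 32.4 CPM.

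INSIG1 (ENSG00000186480, chr7:155297776-155310235, plus strand) encodes the sterol-sensing anchor of SCAP and is itself a known SREBP target. It measured 80.05, 82.7 and 77.0 CPM in the 3 control libraries, 75.8, 79.8 and 82.1 in ATG7 KO and 101, 99.0 and 99.5 in the double knockout. The double knockout libraries lay above the other 6, whose ranges overlapped. INSIG1 rose in the double knockout against control (log2 change 0.32, SE 0.037, edgeR adjusted p = 5.82e-07) and against ATG7 KO (log2 change 0.33, SE 0.037, edgeR adjusted p = 1.04e-07). In ATG7 KO against control its log2 change was −0.012 with a 95% interval of −0.091 to 0.067 (edgeR adjusted p = 0.808). SCAP (ENSG00000114650, chr3:47413694-47477126, minus strand), the escort, ran from 85.1 to 92.3 CPM over the 9 libraries and was not called in any comparison.

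The 7 genes from acetyl-CoA to isoprenoid units were raised in part in ATG7 KO and lowered in the double knockout relative to it. Against control, 4 rose and 3 were not called in ATG7 KO, 1 rose and 2 fell in the double knockout, and 6 fell and 1 was not called between the knockouts. For this and the later role groups, the shares over all tested genes were 28.4% higher and 28.3% lower in ATG7 KO against control. They were 19.0% and 19.6% in the double knockout against control, and 30.5% and 29.9% between the knockouts. ACAT2 (ENSG00000120437, chr6:159760328-159779055, plus strand), which condenses acetyl-CoA in the first step, measured 40.7, 39.7 and 39.0 CPM in the 3 control libraries, 58.4, 60.0 and 53.8 in ATG7 KO and 31.3, 33.5 and 33.9 in the double knockout. The 3 groups did not overlap, with ATG7 KO highest and the double knockout lowest. ACAT2 rose in ATG7 KO (log2 change 0.53, SE 0.047, edgeR adjusted p = 3.26e-09), fell in the double knockout against control (log2 change −0.28, SE 0.048, edgeR adjusted p = 9.12e-05) and fell most between the knockouts (log2 change −0.80, SE 0.047, edgeR adjusted p = 3.62e-12). TCP1, a chaperonin gene on the opposite strand, shares 397 bases (9.24%) of ACAT2's exons and stood at 674 CPM in control, 781 in ATG7 KO and 576 in the double knockout. TCP1 thus had the same order of groups at a far higher level, and its part in the ACAT2 values was not tested.

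HMGCS1, the HMG-CoA synthase of the cytosol, measured 62.9, 60.3 and 62.3 CPM in the 3 control libraries, 88.0, 87.6 and 83.9 in ATG7 KO and 76.2, 80.1 and 80.5 in the double knockout. Both knockouts lay above control without overlap. HMGCS1 rose in ATG7 KO (log2 change 0.48, SE 0.037, edgeR adjusted p = 2.83e-10) and in the double knockout (log2 change 0.35, SE 0.037, edgeR adjusted p = 1.32e-07), and the double knockout was slightly below ATG7 KO (log2 change −0.13, SE 0.036, edgeR adjusted p = 0.00347). IDI1, which isomerises isopentenyl diphosphate, measured 37.4, 39.1 and 37.8 CPM in the 3 control libraries, 52.6, 54.3 and 56.6 in ATG7 KO and 39.9, 41.5 and 40.6 in the double knockout. Its ATG7 KO libraries lay above the rest, with log2 change 0.52, SE 0.042, edgeR adjusted p = 7.52e-10 against control and log2 change −0.42, SE 0.041, edgeR adjusted p = 1.30e-08 between the knockouts. IDI1 in the double knockout was not called against control (log2 change 0.093, SE 0.042, edgeR adjusted p = 0.0918), although its 3 libraries lay above the control ones.

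FDPS, which joins isoprenoid units into farnesyl diphosphate, measured 142, 140.1 and 141 CPM in the 3 control libraries, 171, 168 and 168 in ATG7 KO and 137, 140.1 and 142 in the double knockout. FDPS rose in ATG7 KO (log2 change 0.26, SE 0.028, edgeR adjusted p = 5.60e-08) and returned a log2 change of −0.013 in the double knockout against control (95% interval −0.072 to 0.045). RUSC1-AS1, which overlaps FDPS, had a mean of 2.28 CPM in control and 3.72 CPM in the double knockout, and the pseudogene copies of FDPS, CYP51A1, SCD and HSD17B7 in the table were each under 1 CPM. MVK, PMVK and MVD, the 3 enzymes that act in turn on mevalonate before IDI1, were not called in ATG7 KO against control. PMVK, the phosphomevalonate kinase, measured 22.1, 22.9 and 23.6 CPM in the 3 control libraries, 23.0, 22.9 and 22.7 in ATG7 KO and 18.8, 17.3 and 19.5 in the double knockout. Its double knockout libraries lay below the other 6, with log2 change −0.30, SE 0.060, edgeR adjusted p = 0.000397 against control and log2 change −0.30, SE 0.060, edgeR adjusted p = 0.000167 against ATG7 KO. MVD, the decarboxylase that follows, was lower in the double knockout than in ATG7 KO (log2 change −0.20, SE 0.068, edgeR adjusted p = 0.0166), though its libraries overlapped. That MVD call was lost with library totals alone as scaling (edgeR adjusted p = 0.0547), without ATG7 KO replicate 1 (edgeR adjusted p = 0.104) and without double knockout replicate 1 (edgeR adjusted p = 0.0679). MVK, at 9.27 ± 0.0772 CPM in control, was called nowhere, but without ATG7 KO replicate 2 or 3 its fall between the knockouts passed (edgeR adjusted p = 0.0436 and 0.0193). MMAB, on the opposite strand, shares 306 bases of exon with MVK. It stood at 15.8 CPM in control, 15.5 in ATG7 KO and 14.3 in the double knockout, and its part in the MVK values was not tested.

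The 3 genes that make squalene and lanosterol all rose in ATG7 KO. FDFT1, squalene synthase, measured 104, 100.4 and 101 CPM in the 3 control libraries, 126, 124 and 123 in ATG7 KO and 124, 124 and 128 in the double knockout. Its levels in both knockouts lay above control and overlapped each other (log2 change 0.29, SE 0.031, edgeR adjusted p = 7.15e-08 and log2 change 0.30, SE 0.031, edgeR adjusted p = 1.17e-07). SQLE, squalene epoxidase, known as a slow step of the route, measured 65.3, 70.4 and 67.5 CPM in the 3 control libraries, 78.0, 76.3 and 74.7 in ATG7 KO and 70.8, 76.6 and 74.2 in the double knockout. SQLE rose in ATG7 KO (log2 change 0.17, SE 0.039, edgeR adjusted p = 0.000770) and in the double knockout (log2 change 0.12, SE 0.039, edgeR adjusted p = 0.0155). The SQLE call in the double knockout was lost without control replicate 1 (edgeR adjusted p = 0.0771), double knockout replicate 2 (0.101) or double knockout replicate 3 (0.0539).

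LSS (ENSG00000160285, chr21:46188141-46228824, minus strand), lanosterol synthase, which closes the sterol rings, measured 87.0, 87.1 and 91.4 CPM in the 3 control libraries, 104, 98.8 and 105 in ATG7 KO and 71.5, 72.0 and 66.4 in the double knockout. Its 3 groups did not overlap, with ATG7 KO highest and the double knockout lowest, as for ACAT2. LSS rose in ATG7 KO (log2 change 0.21, SE 0.039, edgeR adjusted p = 7.35e-05), and it fell in the double knockout against control (log2 change −0.34, SE 0.039, edgeR adjusted p = 5.16e-07) and against ATG7 KO (log2 change −0.55, SE 0.039, edgeR adjusted p = 7.30e-11).

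Among the 8 genes from lanosterol to cholesterol, 6 rose and 1 fell in ATG7 KO, 5 rose and 1 fell in the double knockout against control, and 3 rose and 4 fell between the knockouts. The 5 rises were 3 without control replicate 1 or double knockout replicate 1 and 2 without double knockout replicate 2, and the 3 rises were 1 in DESeq2 and without ATG7 KO replicate 2 or double knockout replicate 1 or 2. NSDHL, which helps to strip methyl groups from the sterol, measured 29.1, 27.6 and 28.98 CPM in the 3 control libraries, 43.1, 41.6 and 42.9 in ATG7 KO and 34.7, 31.7 and 32.2 in the double knockout. It was highest in ATG7 KO (log2 change 0.57, SE 0.047, edgeR adjusted p = 7.98e-10) and in between in the double knockout (log2 change 0.20, SE 0.047, edgeR adjusted p = 0.00168 against control). MSMO1, which acts with NSDHL in the same removal of methyl groups, measured 35.5, 33.2 and 35.9 CPM in the 3 control libraries, 40.8, 40.7 and 36.6 in ATG7 KO and 43.2, 46.1 and 45.7 in the double knockout. MSMO1 had the opposite order of the knockouts, with log2 change 0.17, SE 0.050, edgeR adjusted p = 0.00532 in ATG7 KO against control and log2 change 0.37, SE 0.050, edgeR adjusted p = 4.35e-06 in the double knockout against control. Neighbouring enzymes of 1 reaction sequence did not keep 1 order of the groups. HSD17B7, the ketoreductase of that sequence, measured 9.52, 9.96 and 9.35 CPM in the 3 control libraries, 10.3, 9.79 and 9.92 in ATG7 KO and 12.0, 12.0 and 10.5 in the double knockout. HSD17B7 rose in the double knockout against control (log2 change 0.26, SE 0.082, edgeR adjusted p = 0.0134), a call lost without double knockout replicate 1 (edgeR adjusted p = 0.0617) or replicate 2 (0.0629). Its rise against ATG7 KO (log2 change 0.21, SE 0.081, edgeR adjusted p = 0.0334) was lost without ATG7 KO replicate 2 (0.101) or 3 (0.0850) and without double knockout replicate 1 (0.130) or 2 (0.131). It was also lost with no low-count filter (edgeR adjusted p = 0.0740) and in DESeq2 (adjusted p = 0.112).

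EBP, the sterol isomerase that shifts a ring double bond, measured 56.2, 52.9 and 61.9 CPM in the 3 control libraries, 79.4, 83.8 and 75.4 in ATG7 KO and 60.6, 59.8 and 60.4 in the double knockout. EBP rose in ATG7 KO (log2 change 0.48, SE 0.050, edgeR adjusted p = 1.79e-07), fell between the knockouts (log2 change −0.40, SE 0.050, edgeR adjusted p = 1.45e-06) and was not called in the double knockout against control (log2 change 0.080, SE 0.050, edgeR adjusted p = 0.235). Without control replicate 3 the last became a call (edgeR adjusted p = 0.0270, log2 change 0.14). CYP51A1, the demethylase that first acts on lanosterol, measured 126, 125 and 127 CPM in the 3 control libraries, 143, 142 and 144 in ATG7 KO and 120.4, 118 and 114 in the double knockout. CYP51A1 rose in ATG7 KO (log2 change 0.18, SE 0.030, edgeR adjusted p = 2.94e-05) and fell in the double knockout (log2 change −0.10, SE 0.031, edgeR adjusted p = 0.00933), with no overlap among the groups. AC000120.2, on the same strand, shares 79.4% of CYP51A1's exon bases and had a mean of 0.0072 CPM over the libraries. How reads of the shared bases were assigned is not known, and its bearing on the CYP51A1 level was not tested.

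SC5D, a sterol desaturase, rose from 65.2 ± 2.87 CPM in control to 73.9 ± 2.20 in ATG7 KO (log2 change 0.18, SE 0.038, edgeR adjusted p = 0.000404). DHCR7, the last reductase of 1 branch, rose from 81.2 ± 3.58 to 96.2 ± 0.931 CPM (log2 change 0.24, SE 0.036, edgeR adjusted p = 5.00e-06). Both also rose in the double knockout against control, to 70.2 ± 0.483 CPM for SC5D (log2 change 0.11, SE 0.038, edgeR adjusted p = 0.0324) and 87.6 ± 0.875 CPM for DHCR7 (log2 change 0.11, SE 0.036, edgeR adjusted p = 0.0192). These were among the least secure calls. That of SC5D was lost without any 1 of control replicates 1 and 3 or of the 3 double knockout libraries (edgeR adjusted p = 0.0655 to 0.172) and in DESeq2 (adjusted p = 0.0604). That of DHCR7 was lost without control replicate 1 (edgeR adjusted p = 0.0988) or double knockout replicate 2 (0.0677).

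TM7SF2 (ENSG00000149809, chr11:65111845-65116384, plus strand), a sterol reductase whose step LBR can also carry out, was the only enzyme of the 28 that fell in ATG7 KO. It measured 2.87, 2.58 and 3.01 CPM in the 3 control libraries, 1.43, 1.64 and 1.88 in ATG7 KO and 2.45, 2.57 and 2.01 in the double knockout, or 42 to 94 counts per library. ATG7 KO libraries were lowest, with log2 change −0.77, SE 0.18, edgeR adjusted p = 0.000946. The rise in the double knockout against ATG7 KO (log2 change 0.50, SE 0.18, edgeR adjusted p = 0.0215) was lost without ATG7 KO replicate 1 or 2 or double knockout replicate 1 or 2 (edgeR adjusted p = 0.0559 to 0.0977) and in DESeq2 (adjusted p = 0.0679). VPS51, on the same strand, shares 16 bases of exon with TM7SF2 and stood at 58.8 CPM in control, 44.3 in ATG7 KO and 52.2 in the double knockout. The order of groups was the same in both genes, and the part of VPS51 reads was not tested. LBR stood at 209.9 ± 6.18 CPM in control, 228 ± 2.97 in ATG7 KO (log2 change 0.12, SE 0.032, edgeR adjusted p = 0.00291) and 211 ± 8.76 in the double knockout.

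STARD4, which carries sterols between membranes, measured 60.5, 58.4 and 58.0 CPM in the 3 control libraries, 61.4, 65.8 and 63.7 in ATG7 KO and 64.3, 62.6 and 62.8 in the double knockout. Its rises were small, log2 change 0.11, SE 0.038, edgeR adjusted p = 0.0185 in ATG7 KO and log2 change 0.10, SE 0.038, edgeR adjusted p = 0.0404 in the double knockout. The first was lost with library totals alone as scaling (edgeR adjusted p = 0.138) and without control replicate 2 (0.0545), control replicate 3 (0.0662) or ATG7 KO replicate 2 (0.0739). The second was lost in DESeq2 (adjusted p = 0.0872) and without any 1 of control replicates 2 and 3 or the 3 double knockout libraries (edgeR adjusted p = 0.0691 to 0.141). STARD4-AS1, its antisense partner, measured 39.7, 13.3 and 15.7 CPM in the 3 control libraries, 10.5, 10.8 and 9.60 in ATG7 KO and 16.2, 16.0 and 16.2 in the double knockout. Its control libraries lay on both sides of the double knockout, and it was called in no comparison.

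The 4 fatty acid synthesis genes all rose in ATG7 KO and all fell between ATG7 KO and the double knockout. In the double knockout against control 1 rose and 1 fell. SCD (ENSG00000099194, chr10:100347124-100364834, plus strand), the stearoyl-CoA desaturase that makes monounsaturated fatty acids, measured 428, 422 and 419.6 CPM in the 3 control libraries, 622, 631 and 627 in ATG7 KO and 502, 505 and 516 in the double knockout. The groups did not overlap, with control lowest and ATG7 KO highest. SCD had the smallest p among the members in ATG7 KO against control (log2 change 0.57, SE 0.023, edgeR adjusted p = 8.37e-15), and it rose in the double knockout (log2 change 0.26, SE 0.023, edgeR adjusted p = 9.91e-09) and fell between the knockouts (log2 change −0.30, SE 0.023, edgeR adjusted p = 2.04e-10).

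ACACA, acetyl-CoA carboxylase, which makes malonyl-CoA, measured 226, 248 and 233 CPM in the 3 control libraries, 307, 316 and 299 in ATG7 KO and 222, 234 and 225 in the double knockout. FASN, which builds palmitate from it, measured 548, 590.0 and 565 CPM in the 3 control libraries, 678, 732 and 703 in ATG7 KO and 610.0, 582 and 575 in the double knockout. In both genes the ATG7 KO libraries lay above the rest while control and double knockout libraries overlapped. ACACA rose in ATG7 KO (log2 change 0.38, SE 0.034, edgeR adjusted p = 6.84e-09) and fell between the knockouts (log2 change −0.44, SE 0.034, edgeR adjusted p = 7.11e-10), and FASN rose (log2 change 0.31, SE 0.032, edgeR adjusted p = 2.28e-07) and fell (log2 change −0.26, SE 0.032, edgeR adjusted p = 1.97e-06) likewise. Against control, the double knockout gave log2 changes with 95% intervals of −0.13 to 0.016 for ACACA and −0.015 to 0.12 for FASN.

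ACLY measured 543, 549 and 550.1 CPM in the 3 control libraries, 584, 563 and 575 in ATG7 KO and 455, 467 and 456 in the double knockout. Its double knockout libraries were lowest, with log2 change −0.25, SE 0.024, edgeR adjusted p = 2.51e-08 against control and log2 change −0.32, SE 0.024, edgeR adjusted p = 1.25e-10 against ATG7 KO. The rise of ACLY in ATG7 KO (log2 change 0.069, SE 0.024, edgeR adjusted p = 0.0157) was lost with library totals alone as scaling, at a log2 change of 0.027 (edgeR adjusted p = 0.371).

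LPIN1, a phosphatidate phosphatase of glycerolipid synthesis and a known SREBP target, measured 63.8, 63.2 and 65.9 CPM in the 3 control libraries, 65.2, 64.8 and 62.1 in ATG7 KO and 70.0, 71.9 and 71.1 in the double knockout. Its double knockout libraries lay above the other 6, as for INSIG1. LPIN1 rose in the double knockout against control (log2 change 0.14, SE 0.036, edgeR adjusted p = 0.00304) and against ATG7 KO (log2 change 0.15, SE 0.036, edgeR adjusted p = 0.00117), and in ATG7 KO against control its 95% interval was −0.081 to 0.069.

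Other genes of these pathways were counted from lists drawn up by function. Beside every list count below stand the shares over all tested genes, 28.4% higher and 28.3% lower in ATG7 KO against control. The shares were 19.0% and 19.6% in the double knockout against control, and 30.5% and 29.9% between the knockouts. A count near these shares says nothing particular about its list, and no list was tested as a set. Of the 14 SREBP processing and sterol-sensing partners, 8 rose and 5 fell in ATG7 KO, 4 rose and 4 fell in the double knockout against control, and 6 rose and 8 fell between the knockouts. The 5 falls in ATG7 KO were 3 with relative log expression scaling, with no low-count filter and without any 1 of the 3 control libraries, ATG7 KO replicates 2 and 3 or double knockout replicates 2 and 3. The 8 falls between the knockouts were 5 with library totals alone. MBTPS1 and MBTPS2 encode the proteases that release the active SREBPs. MBTPS2 rose in both knockouts, from 57.2 ± 3.60 CPM in control to 76.6 ± 0.465 in ATG7 KO (log2 change 0.42, SE 0.041, edgeR adjusted p = 1.22e-08) and 85.0 ± 1.24 in the double knockout (log2 change 0.57, SE 0.040, edgeR adjusted p = 3.65e-10). MBTPS1 rose in ATG7 KO (log2 change 0.23, SE 0.030, edgeR adjusted p = 9.38e-07) and fell in the double knockout (log2 change −0.19, SE 0.030, edgeR adjusted p = 3.38e-05). FAF2, a factor in the degradation of membrane proteins of the endoplasmic reticulum, did so too, with 0.30 and −0.24 on the log2 scale. INSIG2, the second INSIG gene, was singled out after its values were seen. INSIG2 stood at 18.2 ± 2.47, 14.8 ± 2.23 and 31.8 ± 0.741 CPM in control, ATG7 KO and double knockout and rose in the double knockout against control (log2 change 0.81, SE 0.11, edgeR adjusted p = 0.000115). Its fall in ATG7 KO (log2 change −0.30, SE 0.11, edgeR adjusted p = 0.0443) had overlapping libraries. It was lost with relative log expression scaling (edgeR adjusted p = 0.0557), with no low-count filter (0.140), in the 6 libraries compared alone (0.0799) and without control replicate 1 or 3, ATG7 KO replicate 2 or 3, or any 1 double knockout library (edgeR adjusted p = 0.0671 to 0.143).

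Of 26 other tested genes of fatty acid synthesis, elongation and desaturation (28 listed), 14 rose and 8 fell in ATG7 KO, 9 rose and 4 fell in the double knockout against control, and 13 rose and 10 fell between the knockouts. The elongase ELOVL6, which lengthens palmitate, measured 30.8, 31.6 and 30.4 CPM in the 3 control libraries, 77.0, 75.1 and 74.3 in ATG7 KO and 45.8, 49.3 and 48.6 in the double knockout. ELOVL6 had the same order of groups as SCD, with log2 change 1.29, SE 0.041, edgeR adjusted p = 1.36e-16 in ATG7 KO and log2 change 0.63, SE 0.042, edgeR adjusted p = 1.39e-10 in the double knockout against control. FADS2, the first desaturase of polyunsaturated fatty acids, measured 18.8, 18.7 and 18.6 CPM in the 3 control libraries, 44.3, 45.5 and 48.3 in ATG7 KO and 54.1, 56.7 and 55.8 in the double knockout. FADS2 rose in both (log2 change 1.30, SE 0.046, edgeR adjusted p = 9.06e-16 and log2 change 1.57, SE 0.046, edgeR adjusted p = 2.62e-16) and was highest in the double knockout. ELOVL2, an elongase of long polyunsaturated fatty acids, fell in both, from 39.3 ± 0.321 CPM to 17.2 ± 0.173 (log2 change −1.20, SE 0.049, edgeR adjusted p = 1.13e-14) and 24.8 ± 0.413 (log2 change −0.66, SE 0.048, edgeR adjusted p = 5.17e-10). ACSL4, which activates arachidonic acid, rose from 90.9 ± 2.57 CPM to 152 ± 4.08 in ATG7 KO (log2 change 0.74, SE 0.033, edgeR adjusted p = 4.40e-14). These log2 changes of ELOVL6 and FADS2 were above those of all 28 members.

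Of 11 tested genes of esterification, storage and glycerolipid synthesis (13 listed), 5 rose and 3 fell in ATG7 KO, 4 rose and 2 fell in the double knockout against control, and 3 rose and 4 fell between the knockouts. NCEH1, a cholesteryl ester hydrolase, measured 14.1, 13.6 and 13.9 CPM in the 3 control libraries, 36.2, 38.0 and 34.7 in ATG7 KO and 16.3, 16.3 and 15.7 in the double knockout. Its ATG7 KO libraries lay far above the others (log2 change 1.39, SE 0.058, edgeR adjusted p = 1.38e-14 against control and log2 change −1.17, SE 0.057, edgeR adjusted p = 1.68e-13 between the knockouts). SOAT1, which esterifies cholesterol, rose in ATG7 KO (log2 change 0.36, SE 0.034, edgeR adjusted p = 8.09e-09). The triglyceride synthases DGAT1 and DGAT2 fell there, at −0.76 (edgeR adjusted p = 1.09e-09) and −0.48 (edgeR adjusted p = 1.61e-07). PLIN2, the coat protein of lipid droplets, was singled out after its values were seen and measured 42.1, 35.9 and 46.3 CPM in the 3 control libraries, 71.2, 58.5 and 69.5 in ATG7 KO and 126, 139 and 156 in the double knockout. Its groups did not overlap, with control lowest and the double knockout highest (log2 change 0.68, SE 0.13, edgeR adjusted p = 0.00494 in ATG7 KO and log2 change 1.76, SE 0.13, edgeR adjusted p = 6.93e-05 in the double knockout against control).

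Isoprenoid units also feed dolichol, coenzyme Q and the prenylation of proteins. Of 11 genes of isoprenoid branches, 5 rose and 2 fell in ATG7 KO, 1, PDSS1, fell and 10 were not called in the double knockout against control, and 2 rose and 6 fell between the knockouts. The 5 rises in ATG7 KO were 3 with library totals alone and without control replicate 2 or ATG7 KO replicate 1 or 2, and 2 without control replicate 3. Against control, 2 fell in the double knockout with library totals alone and without double knockout replicate 2, and between the knockouts 1 rose without ATG7 KO replicate 2 or 3 or double knockout replicate 3. NUS1, of dolichol synthesis, rose in ATG7 KO (log2 change 0.23, SE 0.028, edgeR adjusted p = 5.79e-07), as did COQ2, of coenzyme Q synthesis (log2 change 0.51, SE 0.071, edgeR adjusted p = 2.49e-06). GGPS1, which makes geranylgeranyl diphosphate, fell (log2 change −0.24, SE 0.055, edgeR adjusted p = 0.000990), as did DHDDS, the partner of NUS1 (log2 change −0.16, SE 0.040, edgeR adjusted p = 0.00180). Of 5 tested other sterol enzymes (6 listed) 2, ERG28 and LBR, rose and 1, the mitochondrial thiolase ACAT1, fell in ATG7 KO. ACAT1 gave log2 change −0.28, SE 0.033, edgeR adjusted p = 2.90e-07, against the rise of its cytosolic relative ACAT2 in the same libraries, and ERG28 gave log2 change 0.37, SE 0.045, edgeR adjusted p = 4.51e-07. Of these 5, 2 rose and 2 fell between the knockouts. FAXDC2, the fourth of the list by p in ATG7 KO, was not called there (log2 change −0.28, SE 0.17, edgeR adjusted p = 0.180).

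Among 7 genes of sterol efflux and the liver X receptors, 5 rose and 2 fell in ATG7 KO, 1 rose and 1 fell in the double knockout against control, and 1 rose and 5 fell between the knockouts. The 1 rise between the knockouts was 0 in DESeq2 and without ATG7 KO replicate 2 or double knockout replicate 1, and 2 with library totals alone and without double knockout replicate 2. Without control replicate 2, 2 rose in the double knockout against control. LPCAT3, a phospholipid remodelling enzyme and known liver X receptor target, rose in ATG7 KO (log2 change 0.55, SE 0.069, edgeR adjusted p = 1.98e-06), and MYLIP, a ubiquitin ligase that is also such a target, fell (log2 change −0.22, SE 0.045, edgeR adjusted p = 0.000336). APOE and ABCA1, of the same list, also rose there. Without single libraries their log2 changes against control ran from 1.03 to 1.14 and from 0.37 to 0.50. Between the knockouts they ran from −0.71 to −0.64 for APOE and from −0.81 to −0.74 for ABCA1. Of 8 tested sterol carriers (9 listed), 3 rose and 1 fell in ATG7 KO, 1 rose and 1 fell in the double knockout against control, and 2 rose and 4 fell between the knockouts. In ATG7 KO 2 fell without control replicate 2 or ATG7 KO replicate 3. Against control, 2 rose in the double knockout with relative log expression scaling, a minimum mean of 1 CPM, the replicate block or the 6 libraries compared alone, and without ATG7 KO replicate 1 or 3 or double knockout replicate 1. GRAMD1A and GRAMD1B, related carriers that move cholesterol from the plasma membrane to the endoplasmic reticulum, went opposite ways. In ATG7 KO, GRAMD1A fell from 154 ± 1.32 to 109 ± 3.60 CPM (log2 change −0.49, SE 0.032, edgeR adjusted p = 1.86e-11) and GRAMD1B rose from 35.6 ± 1.66 to 57.1 ± 3.20 CPM (log2 change 0.68, SE 0.052, edgeR adjusted p = 3.59e-10). OSBPL9 (0.32; edgeR adjusted p = 4.69e-08) and STARD3 (0.42; edgeR adjusted p = 2.27e-07) rose there too. In the double knockout against control OSBPL9 rose (log2 change 0.15, SE 0.033, edgeR adjusted p = 0.000882) and OSBP fell (log2 change −0.12, SE 0.043, edgeR adjusted p = 0.0352). OSBP was the 1 fall, and no carrier fell with no low-count filter, in DESeq2, or without control replicate 1, control replicate 2, ATG7 KO replicate 1 or double knockout replicate 2, while 2 fell without control replicate 3. Of 3 tested genes of oxysterol synthesis (4 listed), CYP7B1 fell (log2 change −1.04, SE 0.11, edgeR adjusted p = 2.72e-08) and CH25H rose (log2 change 1.15, SE 0.42, edgeR adjusted p = 0.0250) in ATG7 KO. CH25H was under 1 CPM in every group, and its rise was lost in DESeq2 (adjusted p = 0.0567) and without control replicate 1 or 2 or ATG7 KO replicate 1 or 2 (edgeR adjusted p = 0.0530 to 0.166).

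**Figure D4:**
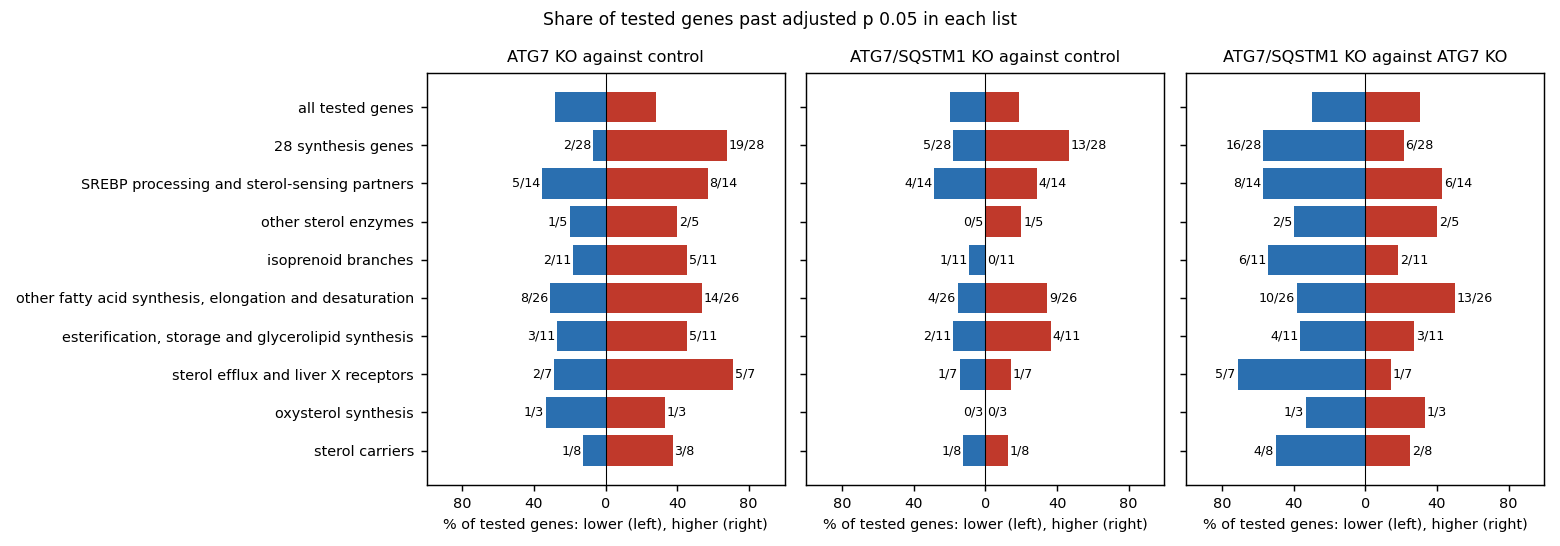
Share of tested genes called higher (right of 0) and lower (left of 0) with edgeR adjusted p under 0.05, in percent, for the 28 genes, for each other list and for all 18847 tested genes, in the 3 comparisons. In ATG7 KO against control the bar of the 28 genes stands for 19 higher and 2 lower, beside 28.4% higher and 28.3% lower over all genes.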

How the data were processed

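RNA was depleted of ribosomal RNA and made into strand-marked libraries, per the labels' protocols. The submitters' processing notes name HISAT2, a read aligner, and the genome build hg38. How the reads were then counted (program, gene models, use of strand) is not given in the sources used here. Values deposited by the authors are whole-number counts, 1 library a column. No cell held a 0, so the 362598 empty cells were read as 0, and 1 unlabelled column of zeros was not used. Of the gene IDs, 58503 matched GENCODE 29 and hold 99.96% of counts.

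These counts were fitted in R 4.3.3 with edgeR 4.0.16: filterByExpr by group (minimum count 10, leaving 18847 genes), TMM factors of 0.977 to 1.01, and a robust quasi-likelihood fit of group means over all 9 libraries with 6 residual degrees of freedom and a common biological coefficient of variation of 6.39%. P-values were adjusted by Benjamini-Hochberg over all tested genes, with 0.05 as the threshold. Standard errors are the log2 change over the square root of F, and intervals are 95%. The labels do not say that libraries of a group came from separate cultures, so p-values measure only how these samples vary, and that variation may be technical. Counts of library pairs in a group differed by more than sampling noise (chi-square per degree of freedom 4.47 to 7.03), so none was counted as a repeat. The fit was also run on counts simulated from its own model and spread, which checks the code and not how well the model describes these libraries.

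All members are named. From every other list the 4 genes of smallest p in ATG7 KO against control are named, and a few of those are left out here. The members and lists were chosen with earlier results of these data known. Alternatives were other scalings (relative log expression, library totals alone), other low-count filters, DESeq2 1.42.0, the 6 libraries compared alone, a replicate block and each library left out.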

Additional observations from a re-analysis of the deposited data

How the results depend on the processing

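Over 7 other settings and 9 fits that each left out 1 library, 17 of the 19 rises and both falls in ATG7 KO against control kept their calls in all 16, as did 8 of 13 rises and 5 of 5 falls in the double knockout against control, and 4 of 6 rises and 15 of 16 falls between the knockouts. Genes called over the whole table ranged from 9801 to 10684, 6300 to 7278 and 10471 to 11428 in the 3 comparisons. In ATG7 KO against control the members' median log2 change of 0.18 was 0.19 with relative log expression scaling, with no low-count filter and with DESeq2, 0.14 with library totals alone, and 0.18 to 0.20 without single libraries. Between the knockouts the median of −0.21 was −0.17 with library totals alone, −0.20 with a minimum mean of 1 CPM, and −0.25 to −0.14 without single libraries. In the double knockout against control 8 to 13 members were higher without single libraries, with the lowest count without double knockout replicate 2. The ratio of the highest to the lowest member level per kilobase in control was 127 with merged exons and 77.0 with the longest coding transcript as length, since the length itself changed.

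Uncalled log2 changes near 0 changed sign. In ATG7 KO against control, INSIG1 was 0.0010 with relative log expression, 0.0013 with no filter and 0.0013 with DESeq2, and LPIN1 was 0.0073, 0.0077 and 0.0071. With library totals MVK was −0.0058 and PMVK −0.039, and PMVK was −0.0012 with a minimum mean of 1 CPM. Between the knockouts SCAP was −0.0075, −0.0039 and −0.0075 in the same 3 settings as INSIG1, and STARD4 was 0.029 with library totals and 0.0028 with the minimum mean. Without single libraries the ranges were −0.012 to 0.027 for PMVK, −0.038 to 0.028 for INSIG1, −0.018 to 0.029 for LPIN1 and −0.090 to 0.13 for MVK in ATG7 KO against control, and −0.029 to 0.028 for SCAP, −0.013 to 0.017 for FDFT1 and −0.037 to 0.0062 for STARD4 between the knockouts. The cause of these sign changes was not tested.

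No pairing by replicate number was visible: correlations of same-numbered deviations from group means ran from −0.061 to 0.023. Those of differently numbered libraries ran from −0.047 to 0.053. Such values cannot tell whether same-numbered libraries were prepared together, which the labels do not say. With the replicate number as a block, 19 members rose and 2 fell in ATG7 KO, 12 rose and 5 fell in the double knockout against control (STARD4 at adjusted p = 0.0533), and 6 rose and 16 fell between the knockouts, with 10564, 7137 and 11262 genes called in all. At 42 to 94 counts per library, TM7SF2 was the member with the least depth.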
